A study of Rattus norvegicus with 14 samples.

Results

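The Nduf genes encode nuclear subunits of respiratory complex I, NADH:ubiquinone oxidoreductase, and several of the factors that assemble it. They were taken here as every gene whose probe set carries a single symbol beginning with Nduf, each represented by its probe set of highest mean signal. This gave 42 of the 14217 genes with a single symbol, and all 42 passed the filter on low signals that kept 11064 genes for testing. The soleus, a slow postural calf muscle, was removed whole from 12 male Sprague Dawley rats, and total RNA from 1 muscle was hybridised to each of 14 Affymetrix rat genome arrays. Tenotomy is the cutting of a muscle's tendon, which takes away its load. Right muscles tenotomized for 1, 2, 3 or 4 weeks formed the short-term group of 6 arrays (weeks 1 and 2 with 2 arrays each, weeks 3 and 4 with 1 each). Right muscles tenotomized for 6, 16 or 22 weeks formed the long-term group of 4 arrays (week 6 with 2 arrays, weeks 16 and 22 with 1 each). The control group was 4 left soleus muscles without tenotomy. Side of the body and tenotomy therefore cannot be told apart in any comparison with control. The sample group labels call the tenotomized groups short-term immobilized and long-term immobilized.

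Rats 61 and 62 each gave a left control muscle and a right muscle tenotomized for 6 weeks. No rat gave both a control and a short-term array, so the cohort of rats and tenotomy cannot be told apart in comparisons of those groups. The labels used here give no age. Values are MAS5 signals on a linear intensity scale, brought to a common scale for the typical tested gene, and changes are differences of mean log2 signal. A change was called at a Benjamini-Hochberg adjusted p under 0.05 in limma over all 11064 genes. All 12 listed slow fibre and soleus markers were present, and their summed signal ran from 81868 to 103140 on the controls, from 80327 to 120186 on the short-term arrays and from 94386 to 109836 on the long-term arrays.

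Complex I is the entry point of the respiratory chain for electrons from NADH, and it couples their transfer to ubiquinone with proton pumping across the inner mitochondrial membrane. It is L-shaped: the matrix arm holds the flavin and the chain of iron-sulfur clusters, and the membrane arm holds the proton channels. The core subunits carry out catalysis, the accessory subunits surround and stabilise them, and the assembly factors build the complex without staying in it. The slow fibres of the soleus are rich in mitochondria and depend on this chain. The core subunits encoded by mitochondrial DNA were not analysed here.

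Promoter sequence was taken from RefSeq (GRCr8), as 300 bases from 250 before to 50 after each gene's start, for the 40 of 42 genes that matched. Ndufa8 and Ndufb9 were not matched. The promoters of Ndufs1 and Ndufb8 are shown because these genes had the largest falls in short-term tenotomy, and capitals mark a match to one of the motifs searched. Ndufs1 lies at chr9:72073556-72073855 on the minus strand and Ndufb8 at chr1:253362887-253363186 on the minus strand.
Ndufs1: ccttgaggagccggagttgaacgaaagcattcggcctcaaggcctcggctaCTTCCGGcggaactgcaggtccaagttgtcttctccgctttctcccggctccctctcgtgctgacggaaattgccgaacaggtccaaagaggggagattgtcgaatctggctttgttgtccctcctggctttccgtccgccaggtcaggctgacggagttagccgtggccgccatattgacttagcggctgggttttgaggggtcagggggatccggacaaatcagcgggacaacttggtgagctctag
Ndufb8: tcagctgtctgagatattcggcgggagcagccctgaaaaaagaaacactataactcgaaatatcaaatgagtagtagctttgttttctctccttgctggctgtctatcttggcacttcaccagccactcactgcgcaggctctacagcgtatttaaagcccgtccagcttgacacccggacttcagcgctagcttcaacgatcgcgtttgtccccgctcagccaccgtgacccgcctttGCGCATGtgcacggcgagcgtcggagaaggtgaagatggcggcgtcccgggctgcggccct
The Ndufs1 window holds the GABP motif CCGGAAG on the opposite strand, beginning at position -199 from the start. The Ndufb8 window holds the NRF1 motif GCGCATG, beginning at position -11. Both strands were searched. GABP, an ETS family factor, and NRF1, the nuclear respiratory factor, are known activators of respiratory genes. The GABP motif was found in 9 of 40 promoters (22.5%) against 8.75% of all 33469 promoters of the same length. The NRF1 motif was found in 6 of 40 (15%) against 3.77% of all. The binding motif of the estrogen related receptors, AAGGTCA, was found in 3 of 40 (7.5%) against 4.61% of all. Among the 34 matched genes that fell in short-term tenotomy, 8 held the GABP motif, 6 the NRF1 motif and 1 the receptor motif. Among the other 6 the numbers were 1, 0 and 2. These matches describe letters in a window and were not tested.

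The first comparison asks how the complex I genes stood in muscle unloaded for 1 to 4 weeks. Of the 42 genes, 36 fell and 0 rose in short-term against control muscle. Over all tested genes, 20.3% fell and 21.3% rose. The median change of the 42 was -0.61 on the log2 scale, a signal that fell by 34.7%, and single genes ran from -1.69 to 0.50, with standard errors from 0.0998 to 0.325. The median of all genes tested was -0.01, which the scaling used here sets near 0. In 31 genes the 6 short-term arrays all lay below the 4 controls, against 14.3% of all genes. Of the 42 genes, 35 fell under each of the 6 scalings tried, against 16.7% of all genes. On a scale that sets the median of all probe sets equal, the calls over all genes split into 76.3% lower and the rest higher, where the scale used here gives 48.9% lower. On that scale the median of the 42 genes was -0.95 with 41 of them lower, and on the deposited scale it was -0.93 with 41 lower, while the median of all genes was -0.34 and -0.31. In a whole muscle, fewer muscle cells in the sample and less of an RNA per cell cannot be told apart.

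**Figure D1:**
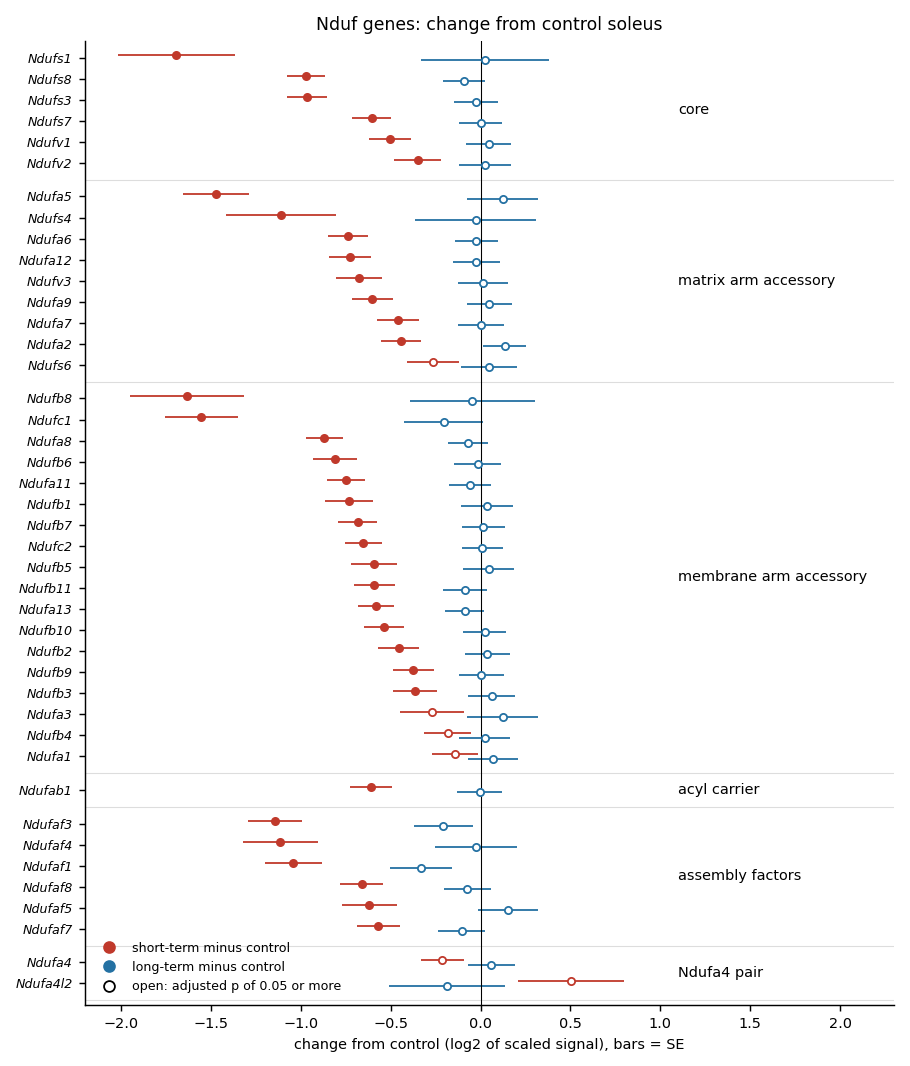
Change of each of the 42 Nduf genes from control soleus, in log2 of scaled signal, for the short-term (red, n = 6) and long-term arrays (blue, n = 4) against 4 controls, by role in the complex; bars are standard errors and filled points passed an adjusted p of 0.05. The red points run from -1.69 to 0.50 with 36 filled, and the blue points lie between -0.33 and 0.15 with 0 filled.

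All 6 core subunits measured fell, with a median of -0.79. Ndufs1, which holds iron-sulfur clusters at the NADH end of the matrix arm, gave signals of 4352, 4093, 3857 and 3989 on the controls. On the short-term arrays its signal ran from 450.4 through a median of 1237 to 2503, and on the long-term arrays it was 4006, 4149, 3684 and 4771. Every short-term array lay below every control and long-term array, and the short-term arrays spread widely, with the lowest at week 2 and the highest at week 3. The fall of Ndufs1 was -1.69 ± 0.325 (SE), a signal 3.23-fold lower than in control (adjusted p = 0.000872).

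Ndufs3, a matrix arm core subunit without a cofactor, read 3843, 3889, 3453 and 3057 on the controls. Its short-term signals ran from 1612 (median 1704) to 2179, and its long-term signals were 3305, 3630, 3626 and 3371. The groups did not overlap between short-term and either other group, and the change was -0.96 ± 0.111 (adjusted p = 3.05e-05). Ndufs8, which carries iron-sulfur clusters on the way to ubiquinone, read 2520, 2788, 2421 and 2249 on the controls. It lay between 1163 and 1401 (median 1264) on the short-term arrays and at 2271, 2545, 2582 and 1987 on the long-term arrays. Its short-term arrays were the most tightly grouped of the 6 core subunits, all below the other groups, with a change of -0.97 ± 0.106 and the lowest adjusted p of the 42 genes (2.37e-05).

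Ndufs7 binds the last iron-sulfur cluster before ubiquinone. Its signals were 4595, 5317, 4754 and 4151 on the controls, 2578 to 3581 (median 3032) on the short-term arrays and 4490, 4704, 5079 and 4489 on the long-term arrays. All 6 short-term arrays were again below the other 8, and the change was -0.61 ± 0.109 (adjusted p = 0.000537). Ndufv1, which binds NADH and the flavin, read 3460, 3433, 3034 and 2982 on the controls, 1885 to 2744 (median 2200) in short-term muscle and 3307, 3341, 3371 and 3264 in long-term muscle. The short-term arrays lay below all controls, with a change of -0.51 ± 0.116 (adjusted p = 0.00299).

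Ndufv2, the iron-sulfur partner of Ndufv1, was the core subunit with the smallest change. It read 4821, 5194, 5233 and 4044 on the controls, 3128 to 4792 (median 3513) on the short-term arrays and 4705, 4729, 4741 and 5366 on the long-term arrays. Its groups overlapped, since control 4 lay below 2 short-term arrays. The change was -0.35 ± 0.131 (adjusted p = 0.0424), and the call held in only 4 of the 14 fits that left out 1 array, with an adjusted p of up to 0.118 without control 3.

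**Figure D2:**
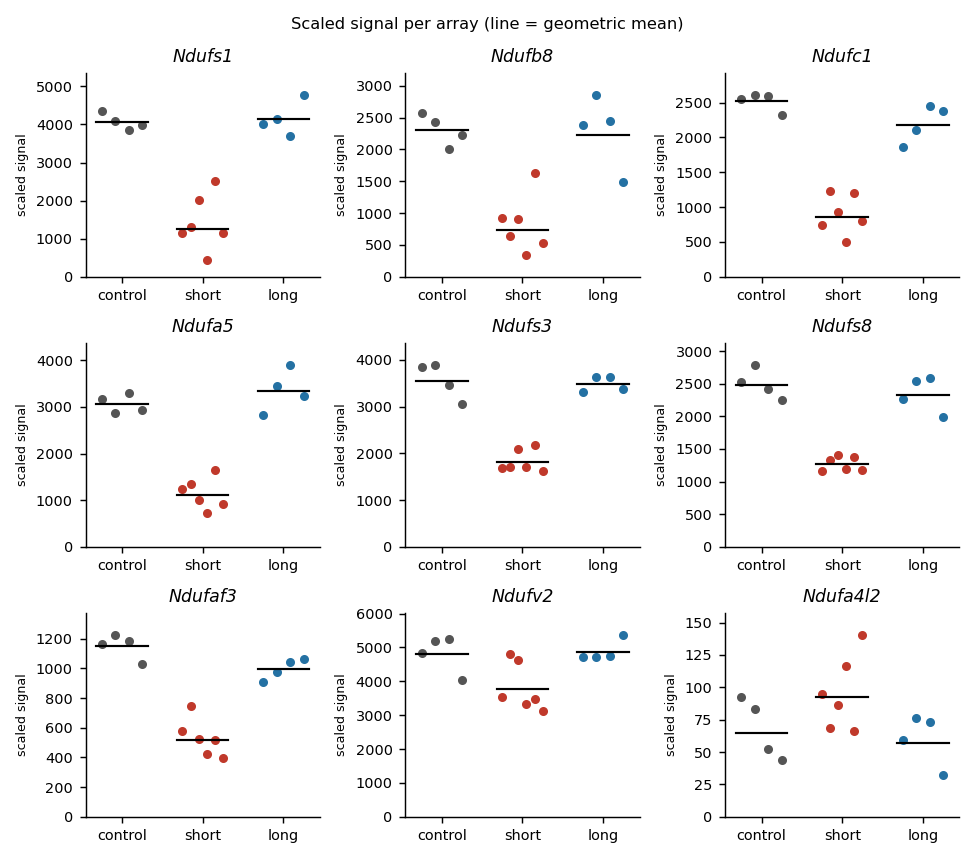
Scaled signal on each array (linear axis from 0) for 9 Nduf genes in control (n = 4), short-term (n = 6) and long-term muscle (n = 4); each point is 1 array and the line is the geometric mean. In Ndufs1, Ndufc1, Ndufa5, Ndufs3, Ndufs8 and Ndufaf3 all short-term points lie below all others, while Ndufv2 and Ndufa4l2 overlap between groups.

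Of the 9 accessory subunits of the matrix arm, 8 fell, with a median of -0.68 and a range from -1.47 to -0.26. Ndufa5, which sits near the ubiquinone-binding part of the arm, read 3164, 2875, 3306 and 2942 on the controls. Its short-term signals were 722.5 to 1637 (median 1130), and its long-term signals were 2838, 3454, 3900 and 3244. No short-term array came near another group, and the change was -1.47 ± 0.182 (adjusted p = 4.88e-05). Ndufs4, whose loss causes a human Leigh-type encephalopathy, changed by -1.11 ± 0.307 (adjusted p = 0.0092), but its controls themselves spread from 1283 to 2666 and overlapped the short-term arrays. Ndufa6 (-0.74), Ndufa12 (-0.73) and Ndufv3 (-0.68) fell by similar amounts. Ndufa9, a subunit close to the ubiquinone site, changed by -0.60, and a second, dim probe set of the gene by -0.92 (adjusted p = 0.013). Ndufa7 (-0.46) and Ndufa2 (-0.44) also fell. Ndufs6, a zinc-binding subunit, had a change of -0.26 that did not pass (adjusted p = 0.156).

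Of the 18 accessory subunits of the membrane arm, 15 fell, with a median of -0.59 and a range from -1.63 to -0.14, and 13 of them had no overlap between short-term and control arrays. Ndufb8, whose protein is widely used to follow assembled complex I, read 2577, 2431, 2002 and 2226 on the controls. On the short-term arrays it ran from 349 (median 776.7) to 1637, and on the long-term arrays it was 2376, 2853, 2444 and 1481. All 6 short-term arrays lay below all controls, and only the 22-week array of the long-term group fell within their range. The change was -1.63 ± 0.316 (adjusted p = 0.000917). Ndufc1, a small subunit of the membrane arm, read 2558, 2608, 2591 and 2328 on the controls, 494.7 to 1225 (median 861.7) on the short-term arrays and 1860, 2100, 2451 and 2376 on the long-term arrays. Its short-term arrays all lay below the others, with a change of -1.55 ± 0.202 (adjusted p = 6.47e-05).

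The other membrane arm subunits that fell had changes between -0.87 (Ndufa8) and -0.37 (Ndufb3 and Ndufb9). Ndufa11, known from structures to touch complex III in supercomplexes, changed by -0.75, and Ndufa13, also studied as the cell death regulator GRIM-19, by -0.58. Ndufb3 (adjusted p = 0.0245) held in 11 of 14 fits that left out 1 array, and Ndufb9 (adjusted p = 0.0153) in 13. Ndufa3 (-0.27, adjusted p = 0.239), Ndufb4 (-0.18, 0.278) and Ndufa1 (-0.14, 0.394) did not pass. Ndufab1, the mitochondrial acyl carrier protein, is a complex I subunit that also serves mitochondrial fatty acid synthesis, and it changed by -0.61 ± 0.114 (adjusted p = 0.000725).

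All 6 assembly factors named Nduf fell, with a median of -0.85 and a range from -1.14 to -0.57, and none overlapped between short-term and control arrays. Ndufaf3 and Ndufaf4 act together early in building the matrix arm. Ndufaf3 read 1162, 1226, 1184 and 1033 on the controls, 397.1 to 747.2 (median 522.6) on the short-term arrays and 906.5, 975.9, 1044 and 1062 in long-term muscle. All 6 short-term arrays lay clear of the other groups, with a change of -1.14 ± 0.149 (adjusted p = 6.56e-05). Ndufaf4 changed by -1.11 (adjusted p = 0.000714). Ndufaf1, which works with Ecsit and Acad9 on the membrane arm, changed by -1.04 (adjusted p = 0.000179). Ndufaf8 (-0.66) and its partner Ndufaf5 (-0.62), which in human cells modifies an arginine of Ndufs7, fell as well, as did Ndufaf7 (-0.57), an arginine methyltransferase.

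Ndufa4 and Ndufa4l2 were not among the genes that fell. Ndufa4 was first described in complex I and is now assigned to cytochrome c oxidase. It read 5182, 5656, 5680 and 4730 on the controls, 3841 to 5561 (median 4452) in short-term muscle and 5436, 4992, 5341 and 6409 in long-term muscle. Its groups overlapped, and its change of -0.21 ± 0.12 did not pass (adjusted p = 0.164), although it passed under 2 of the 6 scalings. That change lay between those of the complex I subunits Ndufa1 (-0.14) and Ndufa3 (-0.27). These 2 subunits, Ndufb4 and Ndufs6 also passed under the same 2 scalings only. They were the common median over all probe sets and the deposited scale, which put the median of all genes at -0.34 and -0.31. Ndufa4l2, a paralogue known to be induced by hypoxia in other cells, was dim. It read 92.61, 82.87, 52.46 and 44.12 on the controls, 66.12 to 140.4 (median 90.53) on the short-term arrays and 59.47, 76.44, 72.9 and 31.98 on the long-term arrays. Its groups overlapped, and its change of 0.50 ± 0.295 (adjusted p = 0.18) was the only positive one of the 42.

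The second comparison asks whether muscle tenotomized for 6 weeks or more differed from control. None of the 42 genes passed the threshold (0 lower and 0 higher in limma), and 0% of all genes did. At an unadjusted p under 0.05 there were 260 genes, 0 of them among the 42. The changes ran from -0.33 (Ndufaf1, unadjusted p = 0.076) to 0.15, with a median of 0.00, and 39 of 42 lay within 0.2 of zero. The standard errors were 0.109 to 0.356 (median 0.132), which limits how small a difference could be seen with 4 arrays a group. No gene separated the 2 groups without overlap, against 1.31% of all genes lower and 1.05% higher. A p that misses the threshold does not show equal levels.

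Between the tenotomized groups, 36 of 42 genes were higher in long-term than in short-term muscle and 0 were lower. Over all genes, 19.5% were higher and 20.8% lower. The median difference was 0.65, with a range from -0.69 to 1.72, and 32 genes had no overlap, against 13.3% of all genes. This comparison shares its short-term arrays with the first. The largest differences were those of Ndufs1 (1.72 ± 0.325, adjusted p = 0.000854), Ndufa5 (1.59 ± 0.182, adjusted p = 4.79e-05) and Ndufb8 (1.59 ± 0.316, adjusted p = 0.00118). By role, the higher genes were 6 of 6 core subunits (median 0.74), 8 of 9 matrix arm and 15 of 18 membrane arm accessory subunits (0.69 and 0.60), Ndufab1, and 6 of 6 assembly factors (0.74). Ndufa4 (0.27, adjusted p = 0.0801) and Ndufa4l2 (-0.69, 0.0728) did not pass. The core subunit Ndufv2 passed (0.37, adjusted p = 0.0322), but held in only 6 of 14 fits that left out 1 array, with an adjusted p of up to 0.0962 without long-term array 4. On the scale that equalises the median of all probe sets, 22.1% of the calls over all genes were lower, where the scale used here gives 51.6%. The median of the 42 genes was then 1.02, with 41 of them higher.

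By week, the median of the 42 genes relative to the control mean was -0.74 and -0.43 on the arrays of week 1, -0.48 and -0.69 at week 2, -0.62 at week 3 and -0.83 at week 4. It was -0.04 and -0.06 at week 6, 0.01 at week 16 and 0.10 at week 22. The 4 controls lay at 0.03, 0.09, 0.03 and -0.15. Group means of this median were 0.00 ± 0.10 (SD, n = 4) for control, -0.63 ± 0.15 (n = 6) for short-term and 0.00 ± 0.07 (n = 4) for long-term muscle. The 6 arrays of weeks 1 to 4 thus all lay below the 8 others. On these arrays 40, 32, 33, 38, 41 and 41 of the 42 genes were below all 4 controls, where 33.3%, 30.8%, 32.5%, 37.8%, 32.9% and 36.2% of all genes were. On the long-term arrays 11, 6, 4 and 7 were below all controls, where 19.5%, 18%, 18.2% and 29.2% of all genes were. Above all controls were 2, 2, 7 and 20 genes on the same arrays, the last that of week 22, where 20%, 19.8%, 16.5% and 25.3% of all genes were.

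**Figure D3:**
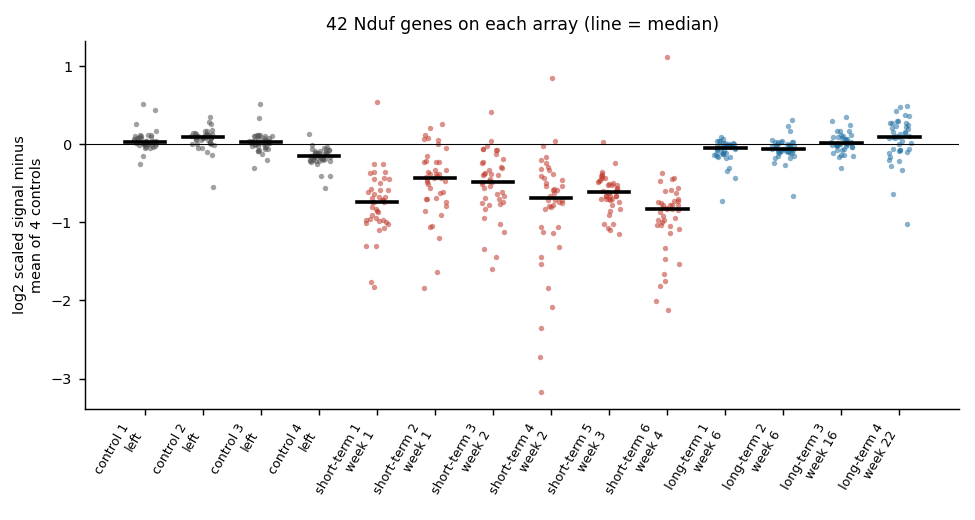
Each point is 1 of the 42 Nduf genes on 1 of the 14 arrays, as log2 scaled signal minus the mean of the 4 controls; the bar is the median of the array. The medians of the 6 arrays of weeks 1 to 4 lie between -0.83 and -0.43, and those of the 8 other arrays between -0.15 and 0.10.

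At week 1 alone (2 arrays), 27 genes were lower than control and 0 higher, with a median of -0.59, where 10.8% of all genes were lower and 10.9% higher. Without the first of these arrays the count was 8. At week 2 (2 arrays), 29 were lower and 0 higher, with a median of -0.54, where 18.6% of all genes were lower and 18.3% higher. Without the second of these arrays the count was 15. Counts over all genes with an array of these weeks left out are not given here. On the deposited scale 41 genes were lower at week 2 (median -1.12), and with the median of all probe sets set equal 39 were (median -0.93). Of the 11064 tested genes, 4473 and 4171 were then lower and 681 and 1089 higher (medians -0.58 and -0.38). The same scalings gave 37 (median -0.91) and 38 (median -0.93) at week 1. All genes then gave 1799 and 3182 lower and 523 and 683 higher (medians -0.30 and -0.33). Ndufs1 changed by -1.73 at week 1 (adjusted p = 0.0149) and -2.10 at week 2 (0.00382), and Ndufb8 by -1.57 (0.00593) and -2.03 (0.00109). Between weeks 2 to 4 and week 1, 0 of the 42 genes passed in limma, and 0.362% of all genes were lower and 0.253% higher. At an unadjusted p under 0.05 there were 1926 of the 11064 genes, 2 of them among the 42, both lower. Of those 2, Ndufaf3 had the lower p (0.00529, adjusted p = 0.126). At week 6 (2 arrays), 0 genes and 0% of all genes passed in limma, and the median was -0.05. At an unadjusted p under 0.05 there were 483 genes, 1 of them among the 42, Ndufaf1 (0.0378).

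Along the 10 tenotomized arrays, a slope on log2 of the week was called positive for 14 of the 42 genes and called negative for 0. By sign alone it was negative for 1 gene, Ndufa4l2 (-0.21). Over all genes, 6.38% rose and 7.38% fell with time. The median slope was 0.18 per doubling of time, Ndufs1 had a slope of 0.52 (adjusted p = 0.04) and Ndufa5 of 0.45 (adjusted p = 0.03). The count was 39 with the median of all probe sets set equal (median slope 0.30) and 32 on the deposited scale. Of all genes, 3304 then rose and 607 fell on the former (median slope 0.12), and 1328 and 321 on the latter (0.10). The count of Nduf genes also rested on single arrays: it was 0 without the 22-week array, 1 without the 16-week array and 6 without either 6-week array. Leaving out the arrays of week 1 gave 4 and 23, those of week 2 gave 7 and 9, and that of week 4 gave 24. Counts over all genes in these fits are not given here. A loss of calls among the Nduf genes therefore cannot be told apart from a loss over all genes. The array medians above step up between weeks 4 and 6 rather than climbing steadily.

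Within single rats, the right muscle tenotomized for 6 weeks can be set against the left one. In rat 61 the median of the 42 genes was 0.11 higher on the right, with 31 genes higher and 11 lower. In rat 62 it was -0.11, with 7 higher and 35 lower. The rats thus differed in sign over most of the genes. Relative to the control mean, the median in rat 61 was -0.15 on the left (control 4, the lowest control) and -0.04 on the right. In rat 62 these medians were 0.03 (control 1) and -0.06. Ndufaf1 was the lowest gene in both rats, at -0.43 and -0.42 right minus left. With 2 rats, these pairs are given as values with no test.

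Other genes of complex I and of the mitochondrion were read from lists for comparison, and differences between lists were not tested. Of 13 complex I assembly factors of other names, 12 fell in short-term muscle and 0 rose, with a median of -0.83. Among them were Foxred1 (-1.29) and Nubpl (-1.23), which delivers iron-sulfur clusters to the complex. Of 46 genes of respiratory complexes II to V, 20 fell and 0 rose, with a median of -0.30. Sdhaf3 (-1.23) and Sdha (-0.79), both of succinate dehydrogenase, changed most. Control signals in this list ran from 41.8 (Cox4i2) to 7302 (Atp5mk), and many lay above 4000. Of the Nduf genes, 15 lay above 4000, with a median change of -0.59, and 27 at or below it, with a median of -0.68. The part of signal level in the smaller median of complexes II to V was not tested. Of 73 mitochondrial ribosomal protein genes, 67 fell and 0 rose (median -0.69). Of 12 markers of mitochondrial content, such as the prohibitin Phb2 (-0.84) and the import receptor Tomm22 (-0.83), 10 fell and 0 rose (median -0.50). Of 15 regulators of respiratory genes, 6 fell and 0 rose (median -0.26), led by Ppargc1a (-1.98, adjusted p = 0.00214), the coactivator of mitochondrial biogenesis, and its partner Esrra (-1.05, adjusted p = 0.00288). The genes of NRF1 and of the GABP subunits, named here after their values were seen, did not pass, with differences of 0.029 for Nrf1 (adjusted p = 0.903), -0.063 for Gabpa (0.824) and -0.15 for Gabpb1 (0.391). In long-term muscle 0 genes of these lists passed against control.

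**Figure D4:**
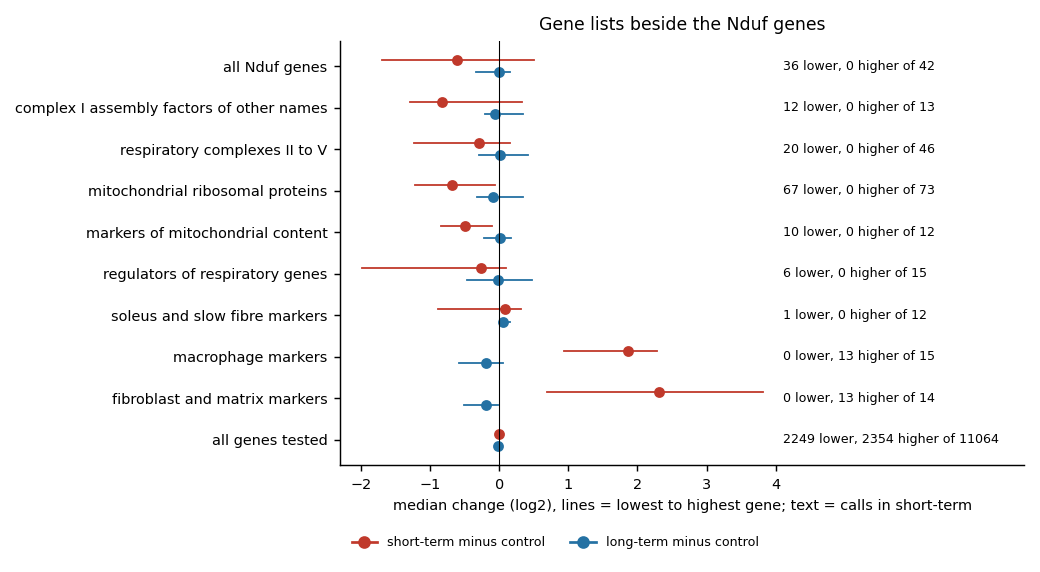
Median log2 change from control of each gene list in short-term (red, n = 6) and long-term muscle (blue, n = 4); lines run from the lowest to the highest gene, and the text counts short-term calls. The Nduf genes have a short-term median of -0.61 and a long-term median of 0.00, and the macrophage and fibroblast markers lie at 1.86 and 2.31 in short-term muscle.

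Markers of other cell types moved along with the fall of the Nduf genes. Of 15 macrophage markers 13 rose in short-term muscle and 0 fell (median 1.86), and their summed signal was 6266 to 13258 against 1878 to 3741 on the controls and 1467 to 4012 on the long-term arrays. Of 14 fibroblast and matrix markers 13 rose and 0 fell (median 2.31), with sums of 45237 to 92215, 12546 to 18374 and 4829 to 22075. Of 5 adipocyte markers tested 1 rose, and the sums over 6 were 2555 to 6216, 2310 to 3762 and 1650 to 3872, with Lep at the floor on every array. Of 6 endothelial markers 1 rose and 1 fell. Of the 12 slow fibre markers 1 fell, Casq2, a calcium-binding protein of the sarcoplasmic reticulum (-0.89), 0 rose, and their median was 0.08. Casq2 was the dimmest of them on the controls (3903), and the others ran from 6993 (Myl2) to 9723 (Myh7). Whether signals this high can show a fall was not tested. The ratio of 3' to 5' signal of Gapdh, a measure of RNA integrity, was 2.08 ± 0.57 (SD, n = 4) on control, 1.33 ± 0.18 (n = 6) on short-term and 1.78 ± 0.67 (n = 4) on long-term arrays, while that of actin ran the other way, at 1.86 ± 0.37, 2.62 ± 0.65 and 2.33 ± 1.00. The spiked poly-A transcripts read 66, 148 and 82.4 on average in these groups. Among the long-term arrays, that of week 22 had the highest ratios, 2.78 for Gapdh and 3.74 for actin. Control array 1 also reached 2.78 for Gapdh, and short-term array 4 reached 3.87 for actin. The part of these markers and measures in the fall of the Nduf genes was not tested.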

How the data were processed

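Total RNA of 14 soleus muscles was labelled with biotin and hybridised to Affymetrix arrays, per the labels' protocols. The authors deposited linear signal intensity per probe set, computed with MAS5 per the submitters' processing notes; its version, scaling target and detection calls are not given in the sources used here. Deposited array medians ran from 29.7 to 49.1, and the number of arrays limits the precision. Of 31099 probe sets, 20826 carried 1 gene symbol, 436 several and 9780 none, and 57 were manufacturer controls.

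Signals were taken to log2, raised to a floor (25th percentile, 9.69), and reduced to the probe set of highest mean for each of 14217 genes. Genes above the 40th percentile (22) on at least 4 arrays were tested. Each array was then shifted by its median log2 difference, over the 11064 tested genes, from the mean of all arrays, because setting the median of all probe sets equal left the median gene at -0.34 in short-term against control. Probe sets of related genes or pseudogenes may share signal. Of the 15 Nduf genes with a control signal above 4000, 11 fell in short-term muscle (median -0.59). Of the 27 at or below 4000, 25 fell (median -0.68). Over all genes, 75 of 234 above 4000 fell (median -0.21) and 2174 of 10830 at or below it (median 0.00). Over the 42 Nduf genes, control signal and short-term change had a Spearman correlation of 0.42, a higher signal going with a smaller fall. Without Ndufa4l2 it was 0.53. The Pearson correlations were -0.07 over the 42 and 0.24 without Ndufa4l2. The part of signal level in the falls was not tested beyond these values.

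Groups were compared in R 4.3.3 with limma 3.58.1 (1 fit over all groups, intensity trend, Benjamini-Hochberg adjustment over all tested genes). Time points were compared in a second fit with a mean per week, and a slope against log2 week was fitted over the tenotomized arrays. The fits treat arrays as independent; the labels show that rats 61 and 62 gave 2 arrays each, and deviations of same-rat arrays correlated by 0.419 and 0.219, against -0.08 and -0.03 across the rats. The code was tested on simulated data. Alternatives were 5 other scalings, other floors and filters, the mean of a gene's probe sets, no trend, the groups compared alone, the rat as a block, and leaving out each array. The genes, lists and tests were chosen with earlier results of these data known. Values per array are given for the core subunits, for the genes with the largest changes past the threshold and for the Ndufa4 pair; genes that missed the threshold in short-term against control are named, the others are given by role group, and each other list by its count, median and its 2 largest changes.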

Additional observations from a re-analysis of the deposited data

Results flagged for a closer look

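The difference between long-term and short-term muscle in their change from control was called for 36 genes in the higher direction and 0 in the lower, by the limma contrast of those groups. In 39 groups of values checked for a single array apart from the rest, where chance marks about 1 in 20, 2 were marked. Ndufv2, a core subunit, read 5366 on long-term array 4 (week 22) while the other long-term arrays lay between 4705 and 4741. Ndufc1, a membrane arm subunit, read 2328 on control array 4 while the other controls lay between 2558 and 2608.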

How the results depend on the processing

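The counts of Nduf genes called in short-term against control (36), long-term against control (0) and long-term against short-term (36) stayed within 1.5 times of these values under all alternatives, and leaving out 1 array gave 33 to 37 and 34 to 39 for the first and last. With the rat as a random block (consensus correlation 0.475) the counts were 36, 0 and 36, and the block changed no call of a gene. The common median over all probe sets and the deposited scale gave short-term medians of -0.95 and -0.93 and long-term against short-term medians of 1.02 and 0.91, where quantile normalization gave 0.49. These 2 scalings put the median of all genes in short-term against control at -0.34 and -0.31. They put it at -0.33 and -0.30 at week 1, and at -0.38 and -0.58 at week 2. The share of lower calls over all genes in short-term against control was then 76.3% and 74.5% against 48.9%. In long-term against short-term it was 22.1% and 30.4% against 51.6%. At week 1 the median was -0.93, -0.91 and -0.46 under these scalings and quantile normalization, and -0.74 to -0.43 with 1 array left out, with counts of 8 to 30. At week 2 it was -0.93 and -1.12, and -0.69 to -0.48 with 1 array left out, with counts of 15 to 30. For weeks 2 to 4 against week 1, leaving out 1 array gave 0 to 1 lower genes and medians of -0.26 to 0.071. The slope on time was the least stable result. It was called for 39 and 32 genes under the common median and the deposited scale (median slope 0.30 under the former). Of all genes, 3304 and 1328 then rose and 607 and 321 fell. The count of Nduf genes was 5 without a filter, 9 without a variance trend, and 0 to 24 with 1 array left out. The cause of these differences was not tested. Ndufv2 lost its short-term call under the trimmed mean, without a filter, without a trend and with the compared groups alone. Ndufa4 passed under 2 of 6 scalings in that comparison and under 4 in long-term against short-term. Ndufa1, Ndufa3, Ndufb4 and Ndufs6 also passed under 2 in short-term against control, and under 2 or 3 in long-term against short-term. The scale of the deposited signals above background is unknown, which limits what can be said of the dim Ndufa4l2.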

Other observations

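Probe sets with 2 symbols were left out of the Nduf genes, and 2 of them carry complex I subunits. The probe set shared by Ndufa10 and Ndufa10l1, an accessory subunit and its copy, had mean signals of 2321 in control, 1892 in short-term and 2359 in long-term muscle, and its short-term change of -0.29 did not pass (adjusted p = 0.231). The probe set shared by Ndufs5 and the pseudogene Ndufs5-ps2 read 3527, 2482 and 3737. It changed by -0.51 in short-term against control (adjusted p = 0.000916) and by 0.59 in long-term against short-term muscle (adjusted p = 0.000369), in the limma fit. Second probe sets of Ndufa7 (-0.68, adjusted p = 0.0555), Ndufaf7 (-0.45, 0.0689) and Ndufv3 (-0.37, 0.134) had the sign of the first in short-term against control without passing in limma.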
